A study of Mus musculus with 2 samples.

Results

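Genes of fatty acid uptake and mitochondrial beta-oxidation were described in the hearts of 4-day-old male mice. The set holds 32 genes listed by symbol for their known roles in the pathway, and all 32 were found among the 55536 mouse genes of the deposited tables. The labels name no treatment, and the mice were B6CASTF1/J animals, the hybrid offspring of C57BL/6J and CAST/EiJ parents. There were 2 total RNA libraries, 1 from each of the animals numbered 03 and 04, called replicate 1 and replicate 2 here. The libraries kept the strand of the RNA, were depleted of ribosomal RNA, and started from 300 ng each with synthetic spike-in RNAs. Both animals carry the same donor record in the labels, so the spread between the libraries may be technical, and an SD over n = 2 is itself imprecise. Both libraries belong to 1 group, so no conditions are compared. The values below give the level of each gene, the ratios between partner genes within a heart, and the difference between the hearts.

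Heart muscle draws most of its energy from long-chain fatty acids after birth, when it turns from glucose and lactate to the fat of milk. Lipoprotein lipase releases fatty acids at the capillary wall. They enter the cell through membrane carriers, travel bound to a small binding protein, and are joined to coenzyme A. The carnitine shuttle carries the acyl chain into the mitochondrion, where each turn of beta-oxidation uses an acyl-CoA dehydrogenase, a hydratase, a hydroxyacyl-CoA dehydrogenase and a thiolase to shorten the chain. Electrons pass through the electron transfer flavoprotein to the respiratory chain, and malonyl-CoA, an inhibitor of carnitine palmitoyltransferase 1, sets how much acyl chain enters.

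Mouse genes received 31512596 expected counts in replicate 1 and 35744013 in replicate 2. All 8 heart muscle markers were expressed, with summed levels of 31734 TPM in replicate 1 and 29656 TPM in replicate 2. TPM is a level per length of transcript, scaled to the library. Levels come from the deposited gene table, and a second deposited quantification of the same libraries, summed per gene, is set beside it where it differs. Of other cells, all 8 endothelial markers (summed 571 and 495 TPM in replicates 1 and 2) and all 8 macrophage markers (47.2 and 46.5 TPM) were expressed. Of 8 skeletal muscle markers 2 were expressed, Ckm and Acta1, which heart muscle also makes, while Myod1 and Pax7 had 0 counts in both. Of 8 liver markers 2 were expressed, with sums of 8.74 and 8.13 TPM. Some brown fat markers differed between the hearts, and the list is given beside that comparison. In bulk tissue, fewer cells of a type and less RNA per cell cannot be told apart.

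All 32 genes were expressed, meaning that their TPM reached 1 in each library, against 23.8% of all mouse genes and 53.8% of the 22015 nuclear protein-coding genes. Their median level was 161 TPM, and the median of the 11854 expressed nuclear protein-coding genes was 12.2 TPM. Of the 32, 29 lay above that median, 24 lay in the top 10 percent of those genes and 19 had at least 100 TPM. Together they held 0.943% ± 0.0393 of the TPM of mouse genes (0.971% in replicate 1 and 0.915% in replicate 2). As a share of the TPM of nuclear protein-coding genes they held 2.13% in replicate 1 and 2.10% in replicate 2. Levels spanned 1319-fold from Cpt1c to Fabp3, and 14 of the 31 neighbours in the order of levels had overlapping ranges over the libraries, so those neighbours were not told apart. Fabp3, Acaa2 and Acadl, the 3 highest of the gene table, each stood clear of the next gene there. In the second quantification Fabp3 was again highest, followed by Hadhb (873 TPM), Acadl (756), Acadvl (754) and Acaa2 (722). The run from Cpt1a through Cpt2, Acacb, Slc27a1 and Mlycd to Acadsb overlapped at every step. Expected counts of the members ran from 141 to 60136.

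**Figure D1:**
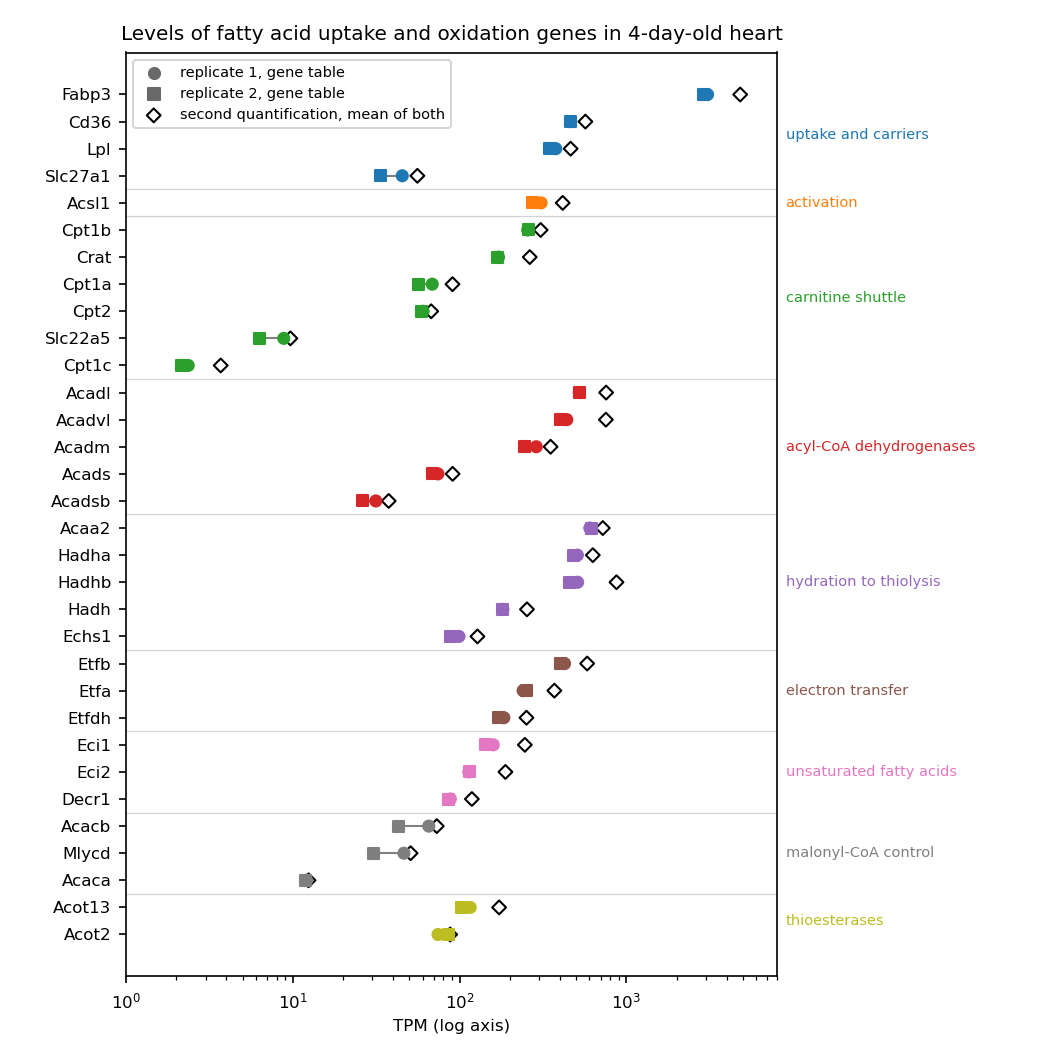
TPM (log axis) of each of the 32 genes in the 2 libraries of the gene table (circles and squares) and as the mean of both libraries in the second quantification (diamonds), grouped by role. Fabp3 stands alone at 2975 TPM, most genes of the mitochondrial cycle lie above 100 TPM, and the diamonds lie to the right of the other marks in nearly every row.

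The uptake genes held 41.1% of the set's TPM, and Fabp3 alone held 31.8% of it. Fabp3 encodes the heart-type fatty acid binding protein, which carries fatty acids through the cytosol. The gene spans 130308595 to 130315463 of chromosome 4 in mm10. It had 3067 TPM in replicate 1 and 2883 TPM in replicate 2, which placed it 8th among the expressed nuclear protein-coding genes. Its transcript is short at 823 nt, and it held 14.9% of the set's expected counts, which are not divided by length. Cd36, the membrane fatty acid translocase, had 462.3 TPM in replicate 1 and 462.2 TPM in replicate 2. Lpl, the lipase of the capillary wall, had 377 and 345 TPM in replicates 1 and 2. Both lay far above the transporter and acyl-CoA ligase Slc27a1 (Fatp1), which had 45.3 TPM in replicate 1 and 33.7 TPM in replicate 2.

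The start region of Fabp3 is shown because it is the gene with the highest level in the set. Promoter windows of 300 bases, 250 before the annotated start and 50 from it on, were taken from RefSeq on GRCm38.p6, the assembly also called mm10, and were at hand for 26 of the 32 genes. None was at hand for Lpl, Cpt1b, Crat, Decr1, Acot13 and Acaa2. The window of Fabp3 is chr4:130308488-130308787 on the plus strand. Its RefSeq start, 130308738, lies inside the gene span given above, which comes from the annotation used for the levels. The Fabp3 window was searched for motifs as the others were. This window holds none of the 6 motifs searched, which are spelled out further on.
Fabp3: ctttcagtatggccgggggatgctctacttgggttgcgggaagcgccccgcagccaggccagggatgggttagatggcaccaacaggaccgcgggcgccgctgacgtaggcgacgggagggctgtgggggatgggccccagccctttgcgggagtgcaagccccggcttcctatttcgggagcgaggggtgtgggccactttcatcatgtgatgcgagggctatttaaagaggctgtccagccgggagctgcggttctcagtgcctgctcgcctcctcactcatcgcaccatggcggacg

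Activation of long-chain fatty acids in this set rests on Acsl1, the long-chain acyl-CoA synthetase, with 308 TPM in replicate 1 and 274 TPM in replicate 2. It exceeded its paralog Acsl3 by 4.68 ± 0.12 on the log2 scale of TPM (pseudocount 0.1), a 25.7-fold difference, in both hearts. Of 9 other genes of acyl-CoA activation and binding, 7 were expressed. Dbi, the acyl-CoA binding protein, led them at 174 ± 6.47 TPM, followed by Acbd3 at 16.1 ± 1.54 and the acetyl-CoA synthetase Acss2 at 13.3 ± 2.61 TPM. Acsl6 stayed at 0.49 TPM in both hearts, and Acsm5 had 0 counts in both.

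The 3 carnitine palmitoyltransferase 1 genes, which make the entry enzyme of the shuttle, had very different levels. Cpt1b, the muscle isoform, had 256 TPM in replicate 1 and 259 TPM in replicate 2. Cpt1a, the liver isoform, which is also found in newborn rat heart, had 68.5 TPM in replicate 1 and 56.6 TPM in replicate 2. Cpt1c, the isoform best known from brain, had 2.36 and 2.15 TPM in replicates 1 and 2, the lowest level of the set, on 155 and 141 counts. Cpt1b exceeded Cpt1a by 1.90 on the log2 scale in replicate 1 and by 2.19 in replicate 2, with a mean of 2.04 ± 0.21, a 4.13-fold difference. It exceeded Cpt1c by 6.77 ± 0.10. Cpt1a itself lay above 90.3% of the expressed nuclear protein-coding genes.

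Of the other shuttle genes, Crat, the carnitine acetyltransferase that handles short chains, had 171 TPM in replicate 1 and 168 TPM in replicate 2. Cpt2, which returns the acyl chain to coenzyme A inside the mitochondrion, had 60.4 and 58.8 TPM, and lay below Cpt1b by 2.11 ± 0.04 on the log2 scale. Slc22a5 (Octn2), the carnitine transporter of the cell membrane, was low at 8.83 TPM in replicate 1 and 6.29 TPM in replicate 2. Slc25a20, the carnitine-acylcarnitine translocase of the inner membrane and no member of the set, had 94.5 ± 7.36 TPM, between Crat and Cpt2.

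The acyl-CoA dehydrogenases, which take the pair of hydrogens in each turn, were highest for long chains and lowest for short ones. Acadl (long chain) had 521.58 TPM in replicate 1 and 521.28 TPM in replicate 2. Acadvl (very long chain, bound to the inner membrane) had 439 and 402 TPM, and Acadm (medium chain) had 288 and 245 TPM. The ranges of these 3 genes did not overlap. Acads (short chain) had 74.1 TPM in replicate 1 and 69.1 TPM in replicate 2, and lay below Acadm by 1.89 ± 0.09 on the log2 scale. Acadsb, for branched short chains of isoleucine breakdown, was lowest with 31.5 TPM in replicate 1 and 26.2 TPM in replicate 2. Acadl exceeded Acadvl by 0.31 ± 0.09 on the log2 scale in the gene table, while the ratio was 0.00 in the second quantification.

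Among the enzymes of the later steps, Acaa2, the mitochondrial 3-ketoacyl-CoA thiolase, stood next after Fabp3 in the gene table but not in the second quantification, with 604 TPM in replicate 1 and 614 TPM in replicate 2. Hadha and Hadhb encode the alpha and beta subunits of the trifunctional protein, which carries out the later steps on long chains. Hadha had 509 TPM in replicate 1 and 479 TPM in replicate 2, and Hadhb had 510 TPM in replicate 1 and 455 TPM in replicate 2. Their levels thus came out near-equal in both hearts. The log2 ratio of Hadha over Hadhb was -0.00 in replicate 1 and 0.08 in replicate 2. Of the 17 pairs compared, theirs was the pair whose deposited intervals of TPM overlapped in both hearts. The second quantification gave a ratio of -0.47, so the near-equal levels were those of the gene table. The matching short-chain enzymes were lower. Hadh, the hydroxyacyl-CoA dehydrogenase of short chains, had 182 and 181 TPM in replicates 1 and 2, and Echs1, the short-chain enoyl-CoA hydratase, had 99.1 and 88.3 TPM.

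Hadha and Hadhb lie head to head on chromosome 5, and their start regions are shown because the subunits they encode form 1 complex and share this stretch. The RefSeq starts lie 273 bases apart, with Hadhb on the plus strand and Hadha on the minus strand. In the annotation used for the levels the outermost starts lie closer, at 30155162 for Hadha and 30155248 for Hadhb. The windows are chr5:30155003-30155302 for Hadhb and chr5:30154931-30155230 for Hadha, and they share 228 bases. Capitals mark the GC box GGGCGG or its reverse complement CCGCCC. It occurs 4 times in the Hadhb window and 1 time in the Hadha window, and both are written 5′ to 3′ on their own strand. The Hadha box is the same site as the first Hadhb box, read on the other strand within the shared stretch.
Hadhb: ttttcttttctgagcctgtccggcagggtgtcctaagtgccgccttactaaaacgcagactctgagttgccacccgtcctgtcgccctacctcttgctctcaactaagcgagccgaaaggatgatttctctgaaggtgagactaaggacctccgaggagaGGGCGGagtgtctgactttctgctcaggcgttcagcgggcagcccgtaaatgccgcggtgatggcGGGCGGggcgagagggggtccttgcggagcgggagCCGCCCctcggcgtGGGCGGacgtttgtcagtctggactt
Hadha: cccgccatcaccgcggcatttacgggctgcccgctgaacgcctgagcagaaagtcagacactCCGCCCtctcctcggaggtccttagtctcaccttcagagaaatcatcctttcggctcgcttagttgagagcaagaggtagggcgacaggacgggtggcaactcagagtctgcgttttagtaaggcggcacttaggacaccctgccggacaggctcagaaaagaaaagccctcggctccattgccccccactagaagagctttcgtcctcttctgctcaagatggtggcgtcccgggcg

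The box GGGCGG, searched on both strands, was found in 18 of the 26 genes with windows, or 69.2%. It was found in 38.2% of all 27025 genes with windows and in 70.7% of the 9292 expressed nuclear protein-coding genes, so the set lay near the share of expressed genes. CCAAT was found in 13 of 26, or 50%, against 43.3% of those expressed genes. TATAAA was found in 1 of 26, Acacb, or 3.85%, against 8.42%. AGGTCA, the core element read by many nuclear receptors, was found in 7 of 26, or 26.9%, against 14.5% of the expressed genes and 18.1% of all genes with windows. The 7 genes were Acacb, Acadm, Acadvl, Cd36, Cpt1a, Cpt1c and Echs1. Neither the longer form TNAAGGTCA nor the direct repeat AGGTCANAGGTCA, both of which contain AGGTCA, was found in any of the 26, and they were found in 0.893% and 0.0430% of the expressed genes. A match of letters is a description of the window and no sign of binding.

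The genes of electron transfer lay above the set's median of 161 TPM, and those of unsaturated chains lay below it. Etfb, the beta subunit of the electron transfer flavoprotein, had 426 TPM in replicate 1 and 401 TPM in replicate 2. Etfa, its alpha subunit, had 240 and 252 TPM, and lay below Etfb by 0.83 on the log2 scale in replicate 1 and by 0.67 in replicate 2. The subunit genes of this flavoprotein were apart in both hearts, with no overlap of the deposited intervals and with a mean log2 ratio of Etfa over Etfb of -0.75 ± 0.11. Etfdh, which passes the electrons on to ubiquinone, had 184 and 171 TPM in replicates 1 and 2. Eci1 and Eci2, the enoyl-CoA isomerases that move double bonds, had 159 and 114 TPM in replicate 1 and 144 and 115 TPM in replicate 2. Decr1, the 2,4-dienoyl-CoA reductase, had 88.0 TPM in replicate 1 and 85.6 TPM in replicate 2. Eci1 exceeded Eci2 by 0.40 ± 0.12 on the log2 scale.

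The genes that set malonyl-CoA lay low within the set, and Acacb and Mlycd had the widest relative spread of the set between the hearts. Acacb (chromosome 5, 114146535 to 114250761), the acetyl-CoA carboxylase of the mitochondrial surface, had 65.3 TPM in replicate 1 and 42.9 TPM in replicate 2. Mlycd (chromosome 8, 119394878 to 119411102), malonyl-CoA decarboxylase, which removes malonyl-CoA, had 46.4 TPM in replicate 1 and 30.4 TPM in replicate 2. Both were higher in replicate 1 and their ratio was alike, with Mlycd below Acacb by 0.49 on the log2 scale in each heart. Acaca, the cytosolic carboxylase of fatty acid synthesis, had 12.1 and 11.9 TPM in replicates 1 and 2. Acacb exceeded it by 2.42 on the log2 scale in replicate 1 and by 1.84 in replicate 2, a mean of 2.13 ± 0.41.

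The thioesterases, which split acyl-CoA back to free fatty acid, were both of moderate level. Acot13 had 116 TPM in replicate 1 and 103 TPM in replicate 2, and the mitochondrial Acot2 had 74.2 TPM in replicate 1 and 85.6 TPM in replicate 2. In TPM, Acot13 was thus higher in replicate 1 and Acot2 in replicate 2. On the scaled counts used further on, the log2 ratio of replicate 1 over replicate 2 was 0.04 for Acot13. Its 95% counting interval ran from -0.05 to 0.14, so the direction for Acot13 was not settled. Acot2 lay below Acot13 by 0.45 ± 0.27 on the log2 scale and above its cytosolic paralog Acot1 by 0.32 ± 0.03. In the second quantification the log2 ratio of Acot2 over Acot13 was -0.98 and that of Acot2 over Acot1 was -0.08.

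**Figure D2:**
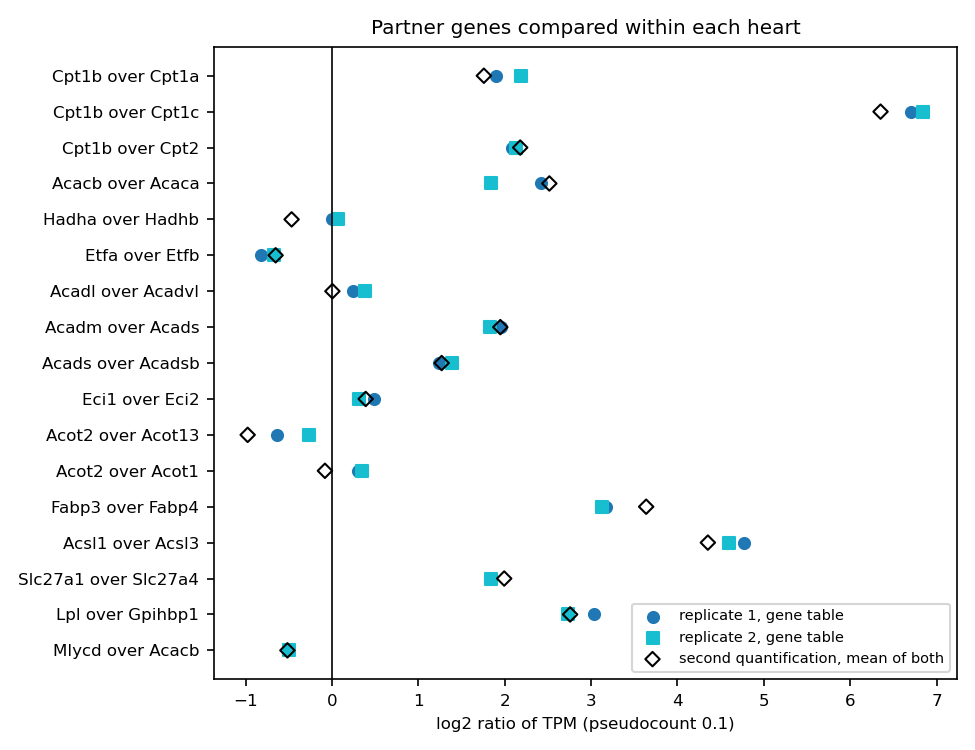
Log2 ratio of TPM (pseudocount 0.1) for 17 pairs of genes, the first-named gene over the other, in each library of the gene table and as the mean of both libraries in the second quantification. In 13 pairs the first-named gene was higher in both hearts, and in 3 it was lower (Etfa over Etfb, Acot2 over Acot13 and Mlycd over Acacb). Hadha over Hadhb was divided at values near 0.

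The partners of the uptake genes were lower than the members themselves. Fabp3 exceeded Fabp4, a binding protein of fat and endothelial cells, by 3.15 ± 0.03 on the log2 scale, an 8.88-fold difference. Lpl exceeded Gpihbp1, the endothelial protein that anchors the lipase, by 2.88 ± 0.22, and Slc27a1 exceeded Slc27a4 by 1.84 in each heart. Of 19 other genes of uptake and storage, 14 were expressed. The 3 highest were Fabp4 at 335 ± 7.77 TPM, Got2, a mitochondrial aminotransferase also described as a fatty acid binding protein of the cell membrane, at 221 ± 27.0, and the caveolar protein Cav1 at 190 ± 5.72. Those under a TPM of 1 were Slc27a6 (0.61), Fabp1 (0.13), Slc27a2 (0.04), and Slc27a5 and Fabp2, which had 0 counts. In the mitochondrial list beyond the set, 24 of 25 matched genes were expressed, led by the ketone genes Acat1 (119 ± 3.08 TPM) and Oxct1 (111 ± 21.1 TPM) and by Slc25a20. Bdh1 was the exception, with 0.42 TPM in replicate 2.

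Peroxisomal oxidation, which shortens very long and branched chains, was expressed at lower levels. In that list 14 of 17 genes were expressed, with a median of 9.84 TPM. Phyh, which starts the breakdown of phytanic acid, had 133 ± 5.57 TPM, Scp2 had 56.5 ± 1.63 TPM and catalase (Cat) had 53.7 ± 3.85 TPM. Acaa1b and Abcd2 each averaged 0.68 TPM and Acox2 had 0 counts in both hearts. All 11 listed regulators were expressed. Pdk4, the kinase that shuts pyruvate dehydrogenase, led them with 128 TPM in replicate 1 and 65.2 TPM in replicate 2. The nuclear receptor Esrra had 54.0 ± 5.39 TPM, and the coactivator Ppargc1a had 39.6 TPM in replicate 1 and 59.0 TPM in replicate 2.

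The hearts differed little in this set. On TMM-scaled expected counts, no gene of the 32 passed 1.5-fold in either direction. Of the 16271 filtered genes, 8.09% were over 1.5-fold higher in replicate 1 and 4.22% were over 1.5-fold higher in replicate 2. Those shares include genes of low counts and non-coding types, and the share among coding genes of like depth was not computed. In TPM, Acacb (65.3 and 42.9 TPM in replicates 1 and 2) and Mlycd (46.4 and 30.4 TPM) did pass 1.5-fold. The share of all genes past 1.5-fold in TPM was not computed. No test was run on the hearts, since an exact sign-flip test on 2 libraries can reach no two-sided p below 0.5. The median size of the log2 ratio was 0.09 in the set, 0.19 over all filtered genes and 0.13 over the 4834 nuclear protein-coding genes that averaged at least 1000 counts, a depth that 30 of the 32 reached. The ratio of replicate 1 over replicate 2 was above 0 for 13 genes and below 0 for 19, with a median of -0.03, against 0.00 over all filtered genes. Of the 32, 40.6% were higher in replicate 1, against 50.4% of all filtered genes and 47.3% of the nuclear protein-coding ones. The split depended on the scaling, since most ratios lay near 0. With the libraries scaled by their spike-ins, 6 genes were above 0 (Mlycd, Acacb, Slc27a1, Cpt1c, Slc22a5 and Acadm) and 26 below, and 40.5% of the nuclear protein-coding genes were above 0. In the second quantification 9 were above 0 and 23 below, with 45.3% of the nuclear protein-coding genes above 0.

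The largest ratios above 0 belonged to genes in the lower part of the set's levels, though Acaca and Acadsb, also there, were at -0.06 and 0.04. Mlycd and Acacb still lay above 83.0% and 88.6% of the expressed nuclear protein-coding genes. Mlycd led at 0.48 (counting interval 0.39 to 0.57), followed by Acacb at 0.39 (0.35 to 0.42), Slc27a1 at 0.29 (0.21 to 0.37), Cpt1c at 0.25 (-0.09 to 0.59) and Slc22a5 at 0.21 (0.02 to 0.39), all higher in replicate 1. Acot2, at -0.34 (-0.40 to -0.27), was the gene most shifted to replicate 2, followed by Etfa and Acaa2 at -0.17 each. The intervals are exact binomial ones at the 95% level and cover counting error only, since copies made by PCR are not independent molecules. They left out 0 for 22 of the 32. The share of all filtered genes whose interval left out 0 was not computed. At high counts such intervals are narrow, as for Fabp3 (-0.06 to -0.02), so this count is no trait of the set. On its coding transcripts alone Slc27a1 had 16.0 TPM in replicate 1 and 16.3 TPM in replicate 2, while its retained-intron transcripts held 51.0% of its TPM in replicate 1 and 38.3% in replicate 2. The difference in Slc27a1 was thus not seen on its coding transcripts. On coding transcripts Mlycd had 44.7 TPM in replicate 1 and 29.6 TPM in replicate 2, and Acacb had 59.2 and 39.9 TPM. Of the 10 genes with the highest levels, Fabp3 was at -0.04, Acaa2 at -0.17, Acadl and Cd36 at -0.13, Hadha at -0.08, Etfb at -0.05, Lpl at -0.00, Acadvl at 0.03, and Hadhb and Acsl1 at 0.04. In TPM the members with the widest relative spread were Acacb and Mlycd, with coefficients of variation of 29.4% and 29.3%, and the median over the set was 5.83%.

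**Figure D3:**
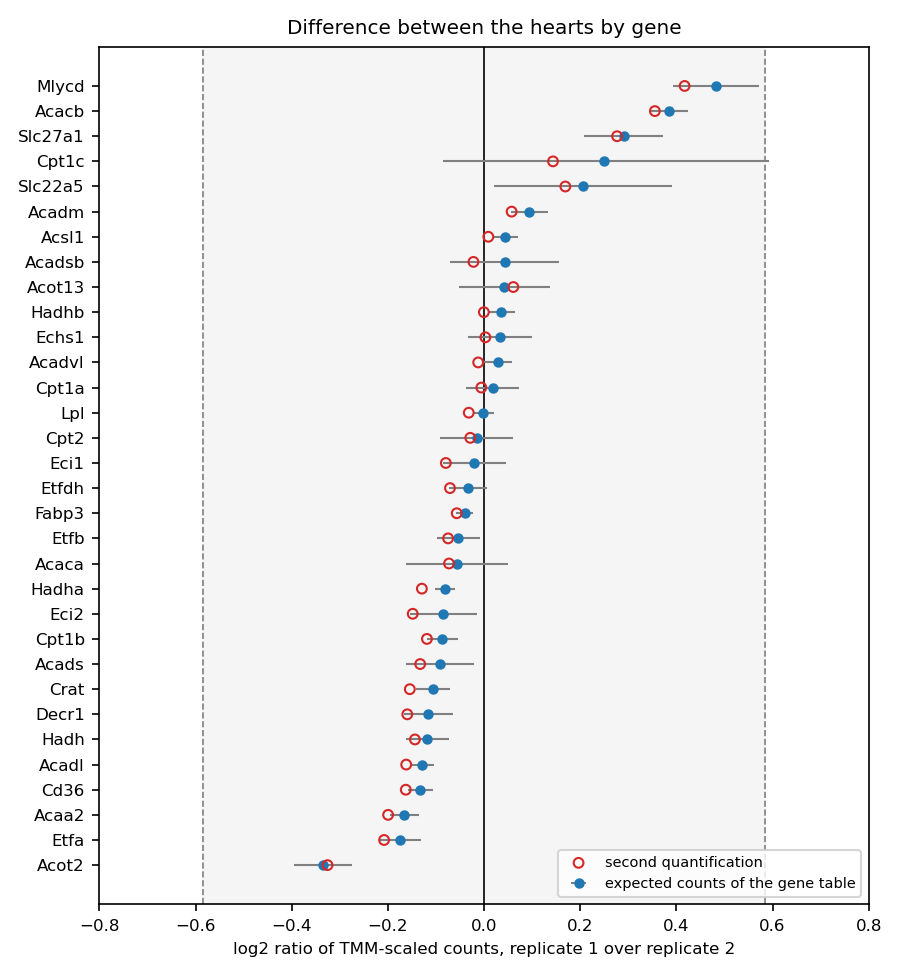
Log2 ratio of TMM-scaled expected counts, replicate 1 over replicate 2, for each of the 32 genes (filled points, with 95% counting intervals), and the same from the second quantification (open circles). The grey band spans 1.5-fold either way and holds every point, with Mlycd and Acacb at the top at 0.48 and 0.39 and Acot2 at the bottom at -0.34.

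Other measures also differed between the hearts. Of 10 brown fat markers 3 were expressed (Cidea, Prdm16 and Dio2), and the list summed to 40.8 TPM in replicate 1 and 52.8 TPM in replicate 2. Ucp1, the uncoupling protein that defines brown fat, had 0 counts in replicate 1 and 396 in replicate 2, and Plin1 had 0 and 116. Adipoq had 1 count in replicate 1 and 59 in replicate 2, and Otop1 had 0 and 13. Elovl3 (0 and 1) and Cfd (0 and 2) lay under a floor of 3 counts in both hearts. Others differed little, with 26.6 and 27.05 TPM for Cidea, 13.0 and 10.7 TPM for Prdm16, and 2 and 3 counts for Adrb3. Genes typed as sense-intronic had a median log2 ratio of replicate 1 over replicate 2 of 0.60 (111 genes), and those typed TEC, gene models awaiting experimental evidence, had 0.58 (912 genes). Transcripts typed as retained introns held 4.87% of the set's TPM in replicate 1 and 4.51% in replicate 2, and 8.11% and 6.99% of the TPM of nuclear protein-coding genes. Fabp3, with 31.8% of the set's TPM, has no retained-intron transcript annotated, which lowers the set's share. Of the muscle markers, Acta1 had 539 TPM in replicate 1 and 155 TPM in replicate 2, with a log2 ratio of 1.67 on counts. Myh7, the slow myosin heavy chain, had a ratio of -0.69 on counts but near-equal levels of 780 and 807 TPM in replicates 1 and 2. Beyond the values given for Slc27a1, Mlycd and Acacb, the part of these measures in the ratios of single genes was not tested.

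Some pathway genes outside the set did pass 1.5-fold between the hearts. The mitochondrial list had 5 of 25 genes with a ratio, all higher in replicate 1, beside the 8.09% of all filtered genes given above. The uptake list had 1 of 15 (Angptl4, higher in replicate 1), the activation list 0 of 8 and the peroxisomal list 1 of 16 (Acaa1b, higher in replicate 2 at -0.65). The regulators had 1 in each direction of 11, Pdk4 and Ppargc1a. Ucp3, an uncoupling protein of muscle mitochondria that is often induced by fatty acids, had 23.0 TPM in replicate 1 and 6.94 TPM in replicate 2, a log2 ratio of 1.57. Slc25a42, a carrier of coenzyme A, had 25.9 and 10.9 TPM (1.15). Bdh1, the ketone body dehydrogenase, had 2.13 and 0.42 TPM. Its ratio of 1.62, taken like the others on scaled counts, rested on only 52 counts in replicate 1 and 17 in replicate 2. Acot11 and Acad10 had ratios of 0.71 and 0.68. Angptl4, a secreted inhibitor of lipoprotein lipase, had 30.2 TPM in replicate 1 and 12.2 TPM in replicate 2 (1.15), and Pdk4 had a ratio of 0.86. Ppargc1a went the other way at -0.63.

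The transcripts that carried each gene were read from the transcript tables. A single transcript led each gene with a median share of 76.8% of its TPM, and coding transcripts held a median of 94.8%. Over the whole set, coding transcripts held 89.9% of the TPM in replicate 1 and 90.3% in replicate 2, against 83.4% and 84.6% over nuclear protein-coding genes. Fabp3, with 31.8% of the set's TPM, has only 1 annotated transcript, a coding one, which raises the set's share. The set without Fabp3 was not compared. The leading transcript was a coding one for 29 of the 32 genes and the same in both hearts for 30. Such counts were not made over other genes, and 2 of the 32 have only 1 annotated transcript. Fabp3, Cd36, Acot2, Acot13 and Acaa2 had all their TPM on coding transcripts. Of these only Acot13 has an annotated non-coding transcript, so the share of the others was fixed by the annotation. Cpt1b was led by the coding Cpt1b-201 at 84.1% ± 2.44, Cpt1a by Cpt1a-201 at 73.3% ± 5.82 and Acacb by Acacb-202 at 87.5% ± 4.64.

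The 3 exceptions were Hadha, Acadsb and Slc27a1. Hadha was led by Hadha-201, typed as a processed transcript with no coding sequence, at 62.9% ± 1.62, and its coding transcripts held 26.1% ± 0.69. Hadhb had 72.4% ± 0.82 of its TPM on coding transcripts, and 25.8% ± 0.13 on Hadhb-208, a short retained-intron transcript. Counted over coding transcripts alone, Hadha had 130 TPM in replicate 1 and 127 TPM in replicate 2, and Hadhb had 366 TPM in replicate 1 and 332 TPM in replicate 2. The near-equal levels of the subunit genes thus held for whole genes in the gene table and not for their annotated coding transcripts. Acadsb was led by the processed transcript Acadsb-204 at 38.5% ± 1.43, with 15.4% ± 2.21 on coding transcripts. Slc27a1 was led in replicate 1 by the retained-intron Slc27a1-205, with 21.8% ± 1.44 on average, and had 41.8% ± 9.29 on coding transcripts.

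**Figure D4:**
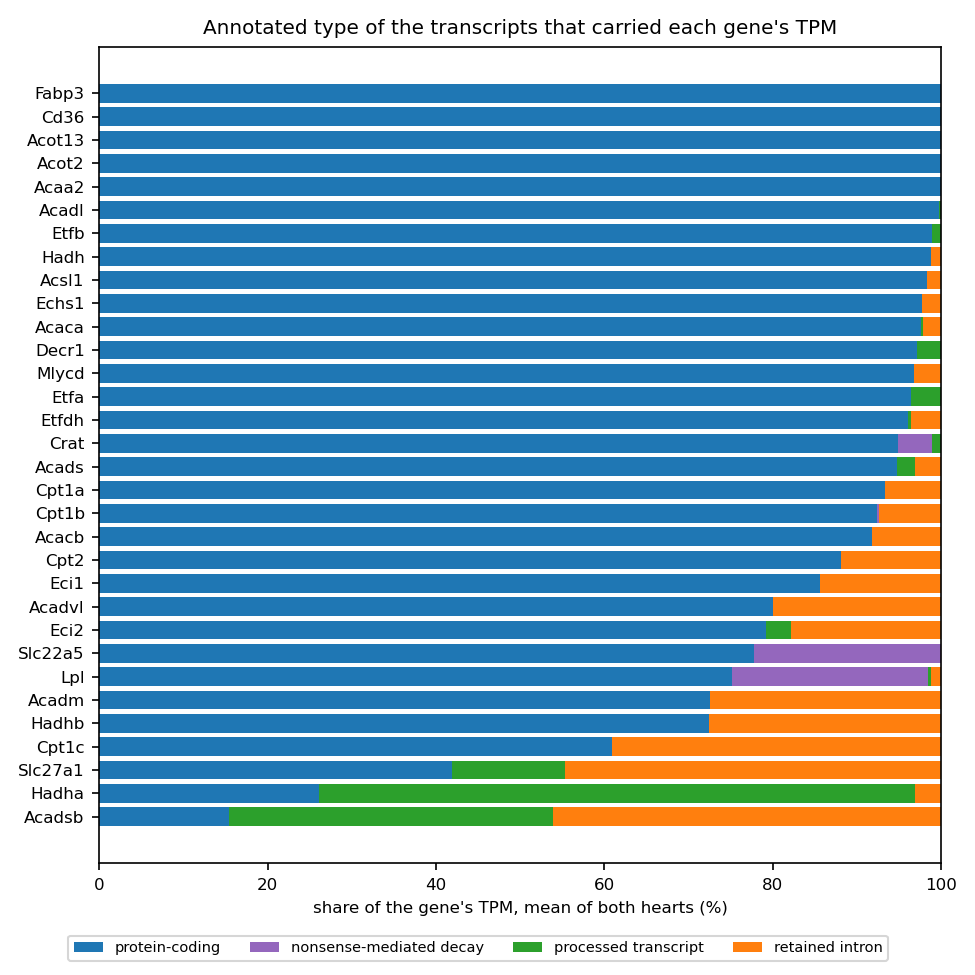
Share of each gene's TPM (percent, mean of both libraries) by the annotated type of the transcript, from the transcript table that goes with the gene table. Coding transcripts held nearly all of the top rows, while Hadha and Acadsb, at 26.1% and 15.4%, rested mostly on transcripts typed as non-coding.

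Other genes held a sizeable non-coding part. Lpl had 23.4% ± 0.25 on Lpl-203, typed for nonsense-mediated decay, and Slc22a5 had 22.2% ± 7.78 on Slc22a5-202, of the same type. Acadvl had 17.0% ± 1.59 on the retained-intron Acadvl-203 and Acadm had 16.9% ± 2.93 on the retained-intron Acadm-207. The tables divided some genes differently. Acadm-207 had 0 in the second quantification. Cd36 was led by Cd36-203 at 45.0% ± 2.47 in the gene pipeline's table and by Cd36-202 at 47.0% in the second, where Cd36-203 had 1.12%. Hadhb-208 held 50.4% of Hadhb in the second quantification, against the 25.8% given above. The same transcript led in both tables for 27 of the 32 genes, a count that was not made over other genes.

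The levels themselves depended on the quantification. The second quantification estimated transcripts from the same libraries, and summed per gene it gave a median of 249 TPM over the set. Of the 32 genes, 31 were lower in the gene table in both libraries. The share of all genes lower in both was not computed, but the shift was general. The median ratio of the second quantification over the gene table was 1.38 in the set and 1.36 over all genes compared. Over 1.5-fold lower in both libraries were 7 of the 32, against 25.2% of the 15568 genes compared. Those 7 were Fabp3, Hadhb, Acadvl, Eci1, Eci2, Acot13 and Crat. Fabp3 had a mean of 2975 TPM in the gene table and 4813 TPM in the second quantification, Hadhb had 482 and 873 TPM, and Acadvl had 420 and 754 TPM. The order of the 32 levels was nearly the same in both, with a Spearman rho of 0.99 across genes, which share their reads and are not replicates. The TPM of 7 genes in each library lay above the interval deposited beside it, Fabp3, Acaa2, Acadl, Cd36, Lpl and Hadh in both, so those bounds are no error bars for these genes.

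Copies and overlapping genes limit some values. Windows of 100 nt of each leading transcript were sought in the transcripts of other genes, and 24 of the 32 shared none. Cpt1b shared 91.1% with Gm44502, an overlapping gene on the same strand of chromosome 15 (89416405 to 89429696) annotated as coding. Gm44502 had 2.73 TPM in replicate 1 and 0.88 TPM in replicate 2, but 43.7 TPM in the second quantification. Hadhb shared 53.2% with the processed pseudogene Gm13910 on chromosome 2 (108948806 to 108950233). Gm13910 was listed at 50.1 TPM, and at 95.3 TPM in the second quantification. Etfb shared 65.2% with the overlapping Gm45233 at 0.89 TPM. Acaca shared 45.2% with the pseudogene Gm5182 at 1.53 TPM. Fabp3 shared 21.7% with Fabp3-ps1, which had 33.0 TPM in the gene table but 0.58 TPM in the second quantification. Acot2 shared 17.1% with Acot1 at 63.8 TPM, and Slc22a5 shared 13.7% with Slc22a21 at 0.99 TPM. How reads were divided within these groups is uncertain, and it bears on Acot2 most, since adding the TPM of Acot1 turned the log2 ratio of Acot2 over Acot13 to 0.39, an alternative chosen after the data were seen.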

How the data were processed

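Total RNA of 2 hearts of 1 group was measured. The tables deposited per gene and per transcript give an expected count, a TPM and a posterior mean TPM under RSEM's column names, per the file headers. They also give, as deposited, the bounds of an interval of TPM of unstated level, handled here as signal values. Another deposited transcript table has kallisto's column names, with an estimated count and a TPM, which were summed per gene here and are called the second quantification. Per notes deposited with the files, the build was mm10 and the annotation GENCODE M21. Tool versions are not given in the sources used here. In the gene tables the effective length was the transcript length less 99 nt, and in the second quantification it was less 342 nt in replicate 1 and 352 nt in replicate 2.

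Expected counts were rounded, and rows naming no mouse gene were left out of library sizes. Of these, 96 spike-ins held 0.588% of replicate 1 and 0.545% of replicate 2, and 26249 other rows held 6.31e-06% and 1.11e-05%. Heart ratios used filterByExpr, TMM and a prior count of 2 in edgeR 4.0.16 under R 4.3.3, with DESeq2 1.42.0 size factors as an alternative. The edgeR common coefficient of variation was 15.2%. This step was tested on simulated data. Other steps used Python 3.11.15, pandas 2.3.3, NumPy 2.4.6 and SciPy 1.17.1. Levels are mean TPM ± SD (n = 2), and genes with 0 counts are below a floor of 3 counts.

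The members, lists, pairs and alternatives were chosen with earlier results of these data known. All 32 members, all 17 pairs, up to 3 leading genes of each other pathway list, its genes under a TPM of 1, and overlapping genes or copies were to be named. Genes of the lists past 1.5-fold between the hearts were named after their values were seen. Of 132 listed genes 131 were matched; Dci is an older symbol of Eci1. Neither all opposite-strand overlaps nor protein sequences were used here.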

Additional observations from a re-analysis of the deposited data

How the results depend on the processing

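The count of 32 expressed genes became 31 at a TPM minimum of 5, with Cpt1c below it, and was 32 in the second quantification. The median level of 161 TPM was 249 in the second quantification and 363 when TPM was rescaled to nuclear protein-coding genes, and 156 to 165 with either heart left out. The share of TPM was 2.11% of nuclear protein-coding genes, 1.40% in the second quantification and 0.915% to 0.971% with either heart left out. Cpt1b over Cpt1a was 1.76 on the log2 scale in the second quantification. The count of 7 genes over 1.5-fold lower in the gene table was 6 at a pseudocount of 1 and 0 when ratios were centred on the median of all genes, which is a 1.36-fold excess of the second quantification. The median share of the leading transcript was 75.6% to 79.9% with either heart left out. The count of 13 pairs with the first-named gene higher was 11 in the second quantification.

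Signs turned for Acot2 over Acot1 (-0.082, second quantification) and Acot2 over Acot13 (0.39, with genes that share windows added, an alternative chosen after the data were seen). Hadha over Hadhb, 0.04 on average, was -0.47 in the second quantification, -0.11 with those genes added and -0.0049 without replicate 2. Signs also turned for 7 heart ratios next to 0, namely Hadhb (-0.0087 with spike-in scaling and -0.00027 in the second quantification), Acadvl (-0.016 and -0.012), Cpt1a (-0.027 and -0.0055), Acadsb (-0.0017 and -0.022), and, with spike-in scaling alone, Acsl1 (-0.00026), Echs1 (-0.011) and Acot13 (-0.0025). The cause was not tested. On scaled counts, no gene of the 32 passed 1.5-fold between the hearts under DESeq2 size factors, spike-in scaling, no filter, a prior count of 0.5 or the second quantification, and the median heart ratio ran from -0.07 to -0.03. In the TPM of the gene table, Acacb and Mlycd did pass 1.5-fold, both higher in replicate 1. No paired analysis was possible because both libraries belong to 1 group. With 1 library per heart no difference has a replicate check, and at 141 to 155 counts Cpt1c is the least precise value.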
